A study of Mus musculus with 2 samples.

Results

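The purinergic genes of the mouse cortex were described here. They encode receptors for extracellular nucleotides and nucleotide sugars, enzymes that break ATP down outside the cell, and the transporter that loads ATP into vesicles. They were selected by gene symbol. Of 9 listed genes, 8 had at least 1 probe set annotated to that symbol alone, namely P2ry1, P2ry14, P2rx4, P2rx7, Entpd1, Entpd2, Nt5e and Slc17a9, and they were covered by 18 probe sets out of 34945 that carried 1 symbol. Adora1, the gene of the adenosine A1 receptor, was not analysed here. The tissue was the cortex of naive male mice on the C57BL/6J strain, aged 2.5 months, which were either WT or P4H-TM KO littermates. For each genotype, RNA from 4 mice was pooled and hybridized to Affymetrix mouse genome arrays, which gave 2 arrays in all, with 1 array per genotype. The labels give the genotype as a knockout of P4H-TM without further detail of the allele, and both pools shared strain, age and tissue. They are called the WT array and the KO array below. No difference between them could be checked against replicates, so no p-value and no spread between animals is given.

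ATP is released from neurons and glia, partly by exocytosis of vesicles that the vesicular nucleotide transporter has filled, and acts on ionotropic P2X receptors, which are cation channels that admit calcium, and on G protein-coupled P2Y receptors, several of which release calcium from the endoplasmic reticulum. Ectonucleotidases then cut ATP and ADP to AMP and AMP to adenosine, which acts on its own receptors and is known in the cortex for damping synaptic release. In the study from which these arrays come, ATP served as the stimulus for calcium entry and vesicle release in cultured cortical astrocytes. The arrays compare gene expression in the cortex with and without P4H-TM, to learn what P4H-TM does in the brain. P4H-TM is a prolyl 4-hydroxylase of the endoplasmic reticulum membrane that acts on hypoxia-inducible factor (HIF), and Nt5e is known as a HIF target in other tissues.

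The 8 genes had similar signal in WT and P4H-TM KO cortex, apart from a lower value of Entpd1 on its brightest probe set. On the brightest probe set of each gene, 5 genes had a higher and 2 a lower value in P4H-TM KO, and P2rx4 had equal values. Centring the arrays on their medians lowered each difference by 0.01, which put Entpd2 at 0 and P2rx4 at −0.01. The log2 differences, P4H-TM KO minus WT, ran from −0.28 for Entpd1 to 0.16 for Slc17a9, with a median of 0.025. Over all 18193 genes the median difference was 0. None of the 8 genes reached 1.5-fold in either direction. For comparison, 11730 genes had a mean signal of 6.385 or more, which is the median over the whole array, and 0.631% of them passed 1.5-fold upward and 0.0512% downward in the KO array. This signal filter was passed by 6 of the 8 genes, and P2ry1 and P2ry14 lay below it. Between the percentiles 10 and 90, differences of the genes above the filter ran from −0.13 to 0.15. Entpd1 and Slc17a9 lay outside that range. At the smaller threshold of 1.2-fold, none of the 6 genes was higher, where 2.90% of the genes above the filter were, and Entpd1 was lower, where 1.83% were. Without the filter the counts over the 8 genes were also 0 higher and 1 lower at 1.2-fold, beside 4.12% and 4.91% of all genes, and 0 at 1.5-fold, beside 0.610% and 0.148%.

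**Figure D1:**
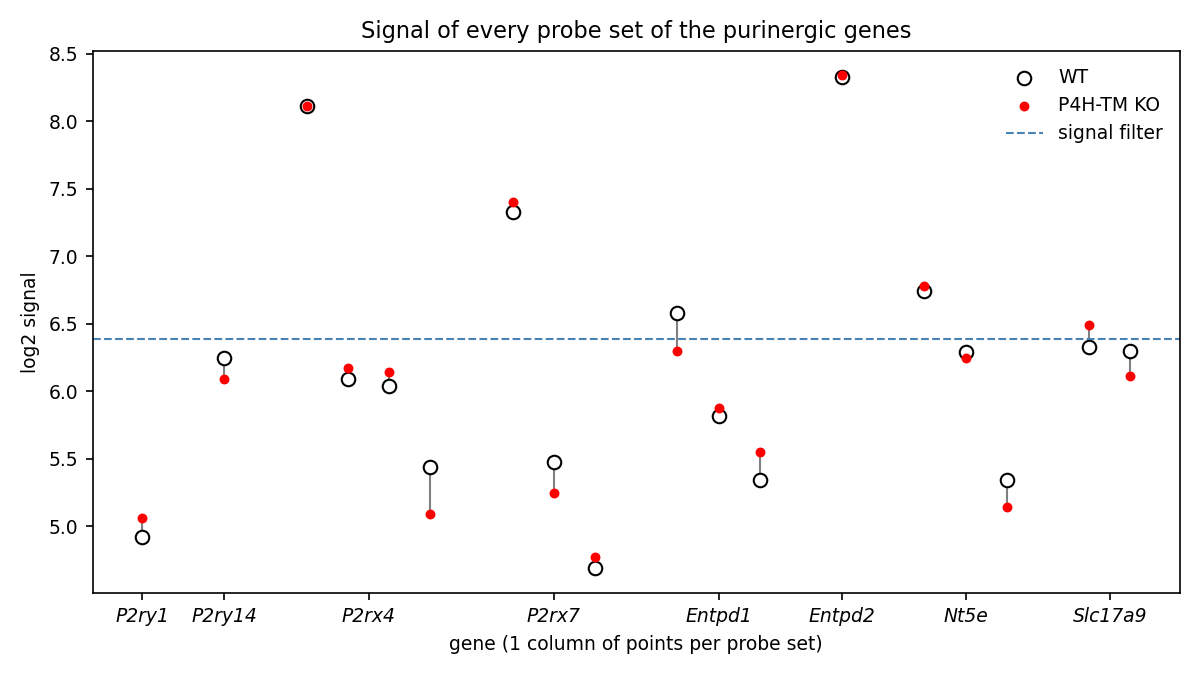
Log2 signal of each probe set of the 8 purinergic genes, as an open circle for the WT array and a red point for the KO array, joined by a grey line; the dashed blue line is the signal filter of 6.385, and there are no error bars because each genotype has 1 array. The red points lie close to or inside their open circles, and the widest gap belongs to the P2rx4 probe set with 5.44 for WT and 5.09 for KO.

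The targeted gene checked the labels. P4htm read 11.05 on the WT array and 9.10 on the KO array, in log2 units, and its dimmer probe set read 9.71 and 8.07. How its probe sets are placed against the disrupted sequence was not examined. The neuron markers were bright, with a mean log2 value of 12.54 for WT and 12.52 for KO over 8 genes. All of them were above the signal filter. These markers do not tell cortex from other brain regions.

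The P2X receptors are opened by ATP. P2rx4, whose product is found in neurons and microglia, read 8.11 on both arrays with its brightest probe set, in log2 units. Its dimmer probe sets, all below the filter, read 6.09 on the WT array and 6.17 on the KO array, 6.04 and 6.14, and 5.44 and 5.09. The brightest probe set thus showed equal signal, and of the dim ones 2 were slightly higher and 1 was lower, by −0.35, the largest difference of any probe set of these genes. P2rx7, the receptor that needs high ATP and is known for its role in microglia, read 7.33 on the WT array and 7.40 on the KO array, a difference of 0.07. Its other probe sets, below the filter, had 5.48 and 5.25 and 4.69 and 4.77, with differences of −0.23 and 0.08. The sign therefore depended on the probe set, and with all probe sets averaged the differences were −0.04 for P2rx4 and −0.03 for P2rx7. These genes are direct neighbours among the protein-coding genes of mouse chromosome 5.

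The P2Y receptors are coupled to G proteins, and P2ry1 and P2ry14 were below the signal filter. P2ry1, a receptor for ADP that couples to release of stored calcium and is known from astrocytes, read 4.92 on the WT array and 5.06 on the KO array with its only probe set, a difference of 0.14. P2ry14, the receptor for UDP-glucose and related UDP-sugars, read 6.25 on the WT array and 6.09 on the KO array, also with a single probe set, a difference of −0.16. Neither gene had another probe set on which the difference could be checked. Of single probe sets below the filter over the whole array, the middle 90% of differences, between the percentiles 5 and 95, ran from −0.33 to 0.30. The values of both genes lie inside that range, whereas the dimmest P2rx4 probe set, at −0.35, lies outside it. At or above the filter the same range ran from −0.19 to 0.22, and the brightest Entpd1 probe set, at −0.28, lies outside it. The remaining probe sets of the main genes lie inside the range for their side of the filter.

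The ectonucleotidases act in sequence. Entpd1 (CD39), which converts ATP and ADP to AMP and is known from microglia and vessels, was the gene that reached 1.2-fold. Its brightest probe set read 6.58 on the WT array and 6.30 on the KO array, in log2 units, which is 1.21-fold lower without P4H-TM. The next probe set read 5.82 for WT and 5.88 for KO, and the dimmest 5.34 and 5.55. The dimmer ones, both below the filter, thus differed in the opposite direction, by 0.06 and 0.21, and the average over the probe sets of Entpd1 was −0.0033. The brightest one crossed the filter value only in WT. Entpd2, which prefers ATP over ADP and is known from astrocytes and progenitor cells, read 8.33 on the WT array and 8.34 on the KO array with its only probe set, a difference of 0.01. Nt5e (CD73), which makes adenosine from AMP, read 6.74 on the WT array and 6.78 on the KO array, a difference of 0.04. Its dimmer probe sets read 6.29 for WT and 6.25 for KO, and 5.34 and 5.14, with differences of −0.04 and −0.20. Of the probe sets of these enzymes, the brightest of Entpd1 was the one past 1.2-fold. Nt5e lies on chromosome 9, as P4htm does, 206 protein-coding genes away from it in the RefSeq order.

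Slc17a9, which encodes the vesicular nucleotide transporter, read 6.33 on the WT array and 6.49 on the KO array with its brighter probe set, and 6.30 and 6.11 with the other. The differences, 0.16 and −0.19, had opposite signs, with an average of −0.015. Both probe sets lay close to the signal filter. The mean of the brighter one was just above it, though of its values only the one for KO was.

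Every one of the 5 genes with 2 or more probe sets had differences of both signs, which also held for 54.7% of all 9010 such genes on the array. The share on the array was 39.9% for genes with 2 probe sets, 63.1% with 3 and 74.6% with 4. Between probe sets of a gene, the difference had a pooled SD of 0.20 over these 5 genes and of 0.15 over all 9010. Over the whole array it was 0.10 at or above the filter and 0.19 below it, where 12 of the 18 probe sets lay. This spread within the arrays says nothing of the spread between animals. Of the 18 probe sets, 10 were higher, 7 lower and 1 equal. None reached 1.2-fold higher, where 4.66% of all probe sets with 1 symbol did, and 2 reached 1.2-fold lower, where 5.18% did, namely the brightest of Entpd1 and the dimmest of P2rx4. Differences were larger where the signal was lower. The 6 probe sets at or above the filter had a median absolute difference of 0.055, and the 12 below it one of 0.15, compared with 0.07 and 0.13 for all probe sets on the same side of the filter.

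**Figure D2:**
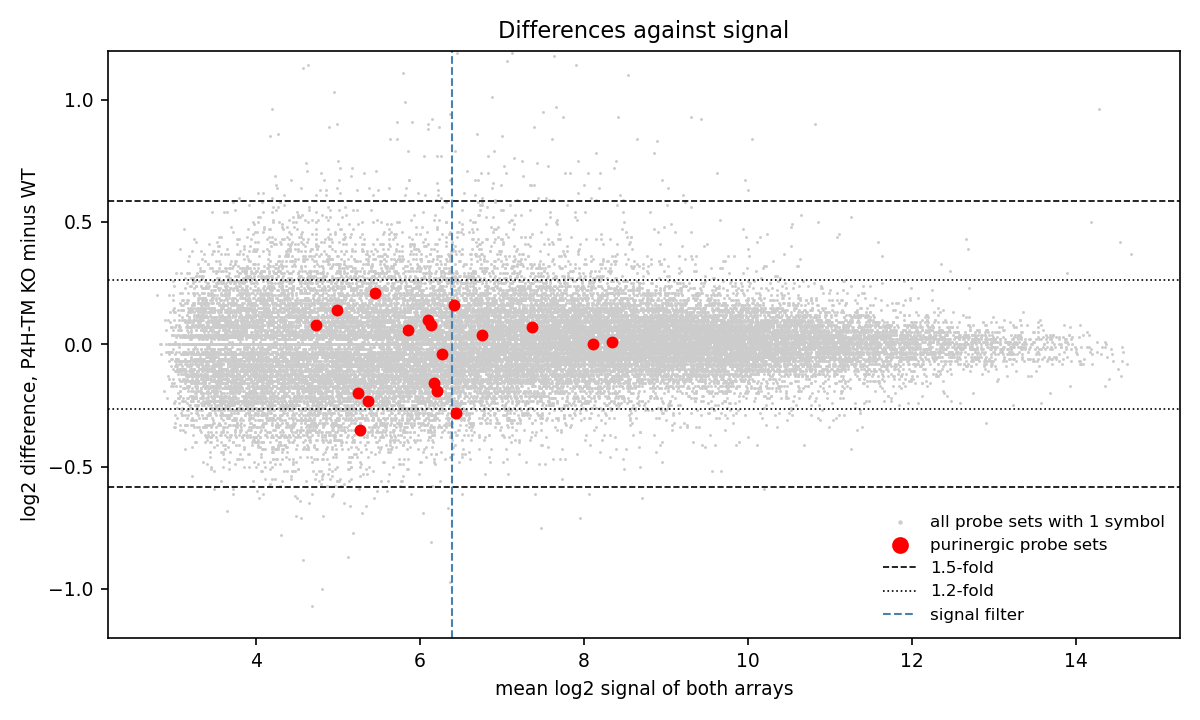
Log2 difference between P4H-TM KO and WT cortex against the mean log2 signal of both arrays, for the 18 purinergic probe sets (red) and all probe sets with 1 symbol (grey), with lines at 1.2-fold (dotted), 1.5-fold (dashed) and the signal filter (vertical). The vertical axis ends at 1.2 and leaves out 38 grey points; the red points lie between −0.35 and 0.21, inside the grey cloud.

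Promoter sequences are shown for Entpd2 and Nt5e, because the study links P4H-TM to HIF. Entpd2 carries the most matches to the HIF core motif among these genes, and Nt5e has a known HIF dependence in other tissues. Both were chosen with their differences known, 0.01 and 0.04 on the brightest probe set. A dimmer Nt5e probe set differed by −0.20. Whether HIF acts on any of these genes was not tested. The sequences are the 250 bases before the RefSeq gene start in GRCm38.p6, both on the plus strand, at chr2:25395624-25395873 for Entpd2 and chr9:88327359-88327608 for Nt5e. Capitals mark matches to ACGTG or GCGTG on either strand, the reverse strand being read as CACGT or CACGC.
Entpd2: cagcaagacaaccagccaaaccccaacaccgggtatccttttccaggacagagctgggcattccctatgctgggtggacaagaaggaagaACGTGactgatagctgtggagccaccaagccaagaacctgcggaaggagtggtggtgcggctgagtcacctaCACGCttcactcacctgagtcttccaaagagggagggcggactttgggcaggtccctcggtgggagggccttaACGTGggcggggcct
Nt5e: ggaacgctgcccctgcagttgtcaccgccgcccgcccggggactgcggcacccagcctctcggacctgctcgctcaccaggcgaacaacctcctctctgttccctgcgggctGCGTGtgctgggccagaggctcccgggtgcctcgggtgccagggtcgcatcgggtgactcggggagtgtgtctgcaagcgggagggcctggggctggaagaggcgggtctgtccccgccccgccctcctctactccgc
Entpd2 held 3 matches and Nt5e 1 match. Of the other genes, P2ry1 held 2 matches, and P2ry14 and Entpd1 held 1 match each. On the brightest probe set P2ry1 differed by 0.14, P2ry14 by −0.16 and Entpd1 by −0.28. Of the 8 genes, 7 had promoters in the RefSeq table and Slc17a9 was not among them. At least 1 match stood in 5 of their 12 promoter windows (41.7%), beside 12679 of 32851 windows (38.6%) of all genes, and P2rx4 and P2rx7 had none. Windows with 3 or more matches made up 6.58% of the total. A match is a run of letters and not a site shown to be bound.

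The wider set of purinergic genes, listed from general knowledge, also differed little. Of 41 further genes, 33 were measured, with a median log2 difference of −0.03, 11 higher, 21 lower and 1 equal, whereas of all 18193 genes 8362 were higher, 8913 lower and 918 equal. None reached 1.5-fold. Above the filter 16 genes had a median of −0.02, where all genes above it had 0.01, and none was 1.2-fold higher and 1 was 1.2-fold lower, beside 2.90% and 1.83% of all genes above the filter. Without the filter 2 of the 33 genes were 1.2-fold higher and 3 lower, beside 4.12% and 4.91% of all genes. The gene above the filter was Slco2a1, a prostaglandin transporter also described as the core of an ATP-releasing anion channel, which read 7.45 on the WT array and 7.16 on the KO array, a difference of −0.29. Its dimmer probe sets differed by −0.25, −0.05 and 0.06.

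Among the other receptors, P2ry12 and P2ry13, the ADP receptors typical of microglia, had nearly equal signal in both arrays, at 8.93 and 8.90 for P2ry12 and 7.64 and 7.63 for P2ry13, WT first. All 5 of the other P2X receptor genes had lower values in P4H-TM KO on their brightest probe set, as did 8913 of all 18193 genes. These 5 ranged from −0.02 for P2rx2 to −0.25 for P2rx1. P2rx6, at −0.16, was the one with a mean above the filter, and it exceeded the filter value only in WT. P2rx1 and P2rx3 each had a dimmer probe set with a higher value, of 0.19 and 0.07. Over all probe sets below the filter the median difference was −0.03. The main P2X genes were not lower, at 0 for P2rx4 and 0.07 for P2rx7. Of the other P2Y receptor genes, P2ry2 had the lowest difference, −0.30, and P2ry4 the highest, 0.10, both below the filter. Adora3, the measured adenosine receptor gene, was below the filter as well, with a difference of 0.04.

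Among the enzymes and transporters, Adk, the kinase that removes adenosine inside cells, read 11.70 on both arrays. Slc29a4, a nucleoside and monoamine transporter, read 10.02 for WT and 10.03 for KO on its brightest probe set. The dimmer one, also above the filter, read 7.13 and 7.27, a difference of 0.14. Alpl, the tissue-nonspecific alkaline phosphatase, had the highest difference of the enzymes, from 5.63 for WT to 6.14 for KO, and Enpp3, an ectonucleotide pyrophosphatase, the lowest, from 5.39 to 4.88, both below the filter. The probe sets of Enpp3 ranged from −0.51 to 0.33. Slc28a3, a concentrative nucleoside transporter, differed by 0.56 on its brightest probe set and by 0.28 and −0.23 on the others, and Ada, adenosine deaminase, by −0.26, again below the filter. The pannexin channel genes Panx1 and Panx2, through which ATP can leave cells, had differences of 0.09 and 0.10 above the filter. Panx3, a pannexin known mainly from skin and skeleton, was below it, with 5.30 for WT and 5.55 for KO. Its dimmer probe sets differed by 0.04 and −0.42.

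**Figure D3:**
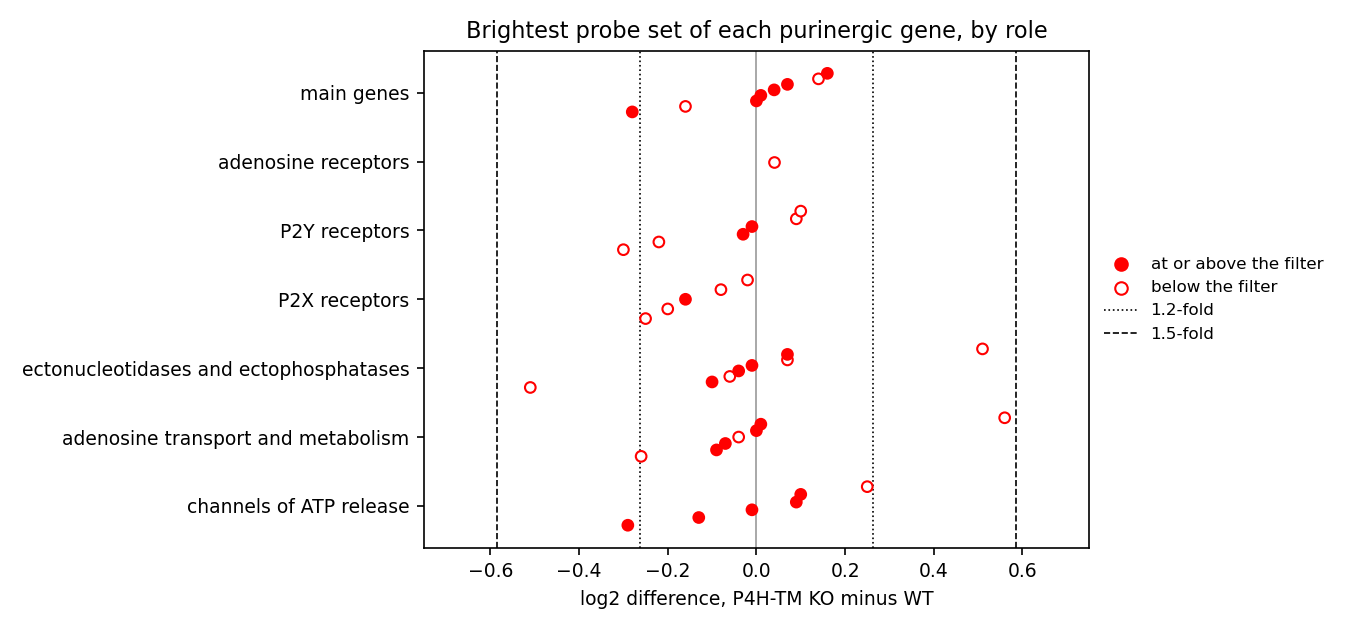
Log2 difference between P4H-TM KO and WT cortex on the brightest probe set, with 1 point per gene, for the 8 main genes (top row) and the 33 other measured purinergic genes by role; filled points are at or above the signal filter and open points below it. Dotted and dashed lines mark 1.2-fold and 1.5-fold. The filled points lie between −0.29 and 0.16, and the open points reach from −0.51 to 0.56.

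Markers of microglia and astrocytes, in which several of these genes are usually found, had similar signal on both arrays, whereas those of choroid plexus, meninges and oligodendrocytes differed. Microglia markers had a median difference of −0.03 over 11 measured genes, 4 higher and 7 lower, with a mean log2 value of 9.05 in each array, and Itgam was the marker below the filter. For 10 astrocyte markers the median was −0.045, 2 being higher and 7 lower, and the mean log2 value was 11.16 for WT and 11.09 for KO. Of 7 endothelium markers, 5 were higher, 1 lower and 1 equal, with mean log2 values of 8.39 for WT and 8.50 for KO, a median difference of 0.11, or 0.15 above the filter, and none at 1.2-fold. Choroid plexus markers were higher in P4H-TM KO in 12 of 12 genes, with mean log2 values of 7.90 for WT and 9.41 for KO and a median difference of 1.605, and meninges markers in 11 of 12, with 7.85 and 8.36 and a median of 0.52. Oligodendrocyte markers were lower in 9 of 9, with 12.06 and 11.81 and a median of −0.29. Hippocampus markers had a median of −0.14 over 6 genes, 1 of which was 1.2-fold lower, and striatum markers one of −0.07 over 5, with none at 1.2-fold above the filter. In RNA from whole tissue, fewer cells of a type and less RNA per cell cannot be told apart, and the part of these cells and tissues in the values of the purinergic genes, including Alpl, Slc28a3 and Slco2a1, was not tested.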

How the data were processed

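RNA of male WT and P4H-TM KO cortex was pooled from 4 mice per genotype and hybridized to 1 array per genotype. Scans were quantified with Affymetrix software and the authors normalized the arrays with GenePattern, and the submitters' processing notes name RMA. The deposited values are log2 signals rounded to 2 decimals, with medians of 6.38 for WT and 6.39 for KO. No scanner files or replicate arrays were used here, and the number of arrays limits the precision.

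Probe sets were named from the platform annotation where they carried 1 symbol, and control probe sets were left out. The probe set with the highest mean signal stood for its gene, and genes with a mean of 6.385 or more passed the filter. Differences are log2 values of P4H-TM KO minus WT. Counts used 1.5-fold and 1.2-fold, without any test. The signals of different probe sets were not compared as amounts of RNA. The genes and lists were chosen with earlier results of these data known. Named were the 8 genes with all probe sets, the further purinergic genes past 1.2-fold above the filter, the highest and lowest of each role and P4htm; P2ry12, P2ry13, P2rx3, P2rx6, Adk, Slc29a4, Panx1, Panx2, Itgam and dimmer probe sets of the further genes were added after their values were seen. The counting was tested on simulated data with planted differences well past 1.5-fold, which says nothing of differences as small as those reported here. Alternatives were probe sets averaged, arrays centred on their medians, no filter and a filter at the 70th percentile. Another was removal of the intensity trend by loess with a span of 0.3. A further one removed probe sets that can match other transcripts, by names ending in _s_at, _x_at or _a_at. Promoter sequences and gene order came from RefSeq, GRCm38.p6, matched by symbol. The build used for the arrays is not given in the sources used here. The work used matplotlib 3.10.9, statsmodels 0.14.6, pandas 2.3.3, numpy 2.4.6 and Python 3.11.15.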

Additional observations from a re-analysis of the deposited data

How the results depend on the processing

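Of 24 alternative counts of the 8 genes, 22 equalled the reported count. The 1 gene lower by 1.2-fold, Entpd1, became 0 with probe sets averaged and 0 with the filter at the 70th percentile, and under each of these settings only 2 of the 8 genes passed the filter. Of 12 alternative medians, 11 stayed within the pooled SD between probe sets of a gene divided by the root of the number of genes. For the main genes that tolerance, 0.060, was larger than their median of 0.025, so a change of sign could count as unchanged. With probe sets averaged their median was −0.016, over the 2 genes that then passed the filter. The median of the other purinergic genes, −0.02, was 0.0267 with probe sets averaged. Of 31 alternative differences of single genes, 29 stayed within the pooled SD of 0.15. Most of these settings could hardly move a gene, so that count does not measure robustness. Averaging cannot change P2ry1, P2ry14 and Entpd2, which have a single probe set, and centring moved all genes by the same small amount. Removal of probe sets that can match other transcripts changed only P2rx4 and left Entpd2 without a value. The removed probe sets of P2rx4 and Entpd2 had names ending in _a_at. Whether they match other genes was not examined. With probe sets averaged Entpd1 went from −0.28 to −0.0033 and Slc17a9 from 0.16 to −0.015. Low signal limits what can be read from P2ry1 and P2ry14, below the filter, and from Entpd1 and Slc17a9, close to it. No paired analysis was possible because there is 1 array per genotype.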
